A study of Homo sapiens with 6 samples.

Results

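Integrins and laminins are the receptors and the main ligands through which cells hold on to a basement membrane. This account covers 36 genes, taken from a table of 28563 genes by symbol alone: 16 integrin alpha subunits, 8 integrin beta subunits and 12 laminin chains, of which 5 are alpha, 4 beta and 3 gamma chains. The choice rests on names and on no measured value, though it was made with earlier results of these data known. ITGA4 and ITGA8, which the same rule names, were not analysed here. Human cells labelled as HepG2, an established line from a liver cancer, were grown in dishes and given either polydatin (PD), a plant glucoside of resveratrol, or its solvent DMSO. The labels give the PD dose as 336 µM for 24 h, while the study's text gives a lower one. Each group had 3 dishes, with 1 library of poly(A) RNA per dish, and all dishes came from 1 cell line. The labels do not say whether the dishes stemmed from separate cultures. The study's methods describe replated dishes assigned at random to PD or DMSO, and no separate cultures. The p-values thus measure the spread between these dishes.

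Library totals lay between 16308476 and 18071632 fragments, with both ends of that range among the PD libraries, and no pair of libraries within a group agreed to within counting error. Values are FPKM, that is, fragment counts scaled by gene length and by the library total. The liver label was checked against 20 hepatocyte markers, of which 12 were in the table. CPS1, a urea cycle enzyme, had 225 ± 3.45 FPKM in DMSO and 109 ± 2.60 in PD (SD, n = 3), and RBP4, a retinol carrier, had 0.391 ± 0.0803 and 1.30 ± 0.376. The other 10 stayed under 1 FPKM, with HNF4A, a defining transcription factor of hepatocytes, at 0.0486 in DMSO and 0.0494 in PD, and APOA1, an apolipoprotein of the liver, at 0.0546 and 0.0963. These markers go against a hepatocyte identity, so the cells are called only by their treatment here. The epithelial keratin genes KRT8 and KRT18 were high, with 50.1 and 46.5 FPKM in DMSO, whereas CDH1, the epithelial cadherin, was at 0.127. None of the 10 leukocyte markers in the table reached 1 FPKM in either group.

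An integrin is a pair of 1 alpha and 1 beta subunit that spans the plasma membrane, binds matrix outside the cell and the actin or keratin skeleton inside it. The alpha subunit largely sets the ligand, and many alpha subunits share ITGB1 as their partner. Laminins are cross-shaped trimers of 1 alpha, 1 beta and 1 gamma chain, named by the numbers of their chains, that are assembled inside the cell and polymerize into the basement membrane, and ITGA3, ITGA6 and ITGA7 with ITGB1, and ITGA6 with ITGB4, are their main integrin receptors.

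PD-treated cells had more mRNA of the laminin-binding subunits ITGA3 and ITGA6 and of the collagen-binding subunit ITGA2, while ITGB1, the shared partner, was slightly lower. ITGB8 was lower, and the other beta subunits with more than 10 FPKM were higher (ITGB4) or did not pass the test (ITGB5). Among laminins, the dominant chain LAMA5 was lower while the scarcer LAMA1 and LAMA3 were higher, and no beta or gamma chain passed the test. Of the 36 genes, 20 averaged 0.5 FPKM or more across all 6 libraries and were tested together with all other such genes, and each of the 20 was above that level in both group means. Only ITGA3 and ITGA2, 2 of the 20, changed at least 2-fold with an adjusted p no higher than 0.05 by limma on log2(FPKM + 1), against 3.61% of the 14400 genes tested. On the adjusted p alone, 12 of 20 passed, against 58.1% of all genes, so that the share was close to the background. Of these, 9 were higher, against 31.9% of all genes, and 3 were lower, against 26.2%. The libraries of the groups did not overlap for 14 of the 20, against 65.4% of all genes. The median log2 fold change of the 20 genes was 0.09, beside 0.01 over all genes, and the median size of the change was 0.21, beside 0.27. In RNA from whole dishes, fewer cells of a type and less RNA per cell cannot be told apart.

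**Figure D1:**
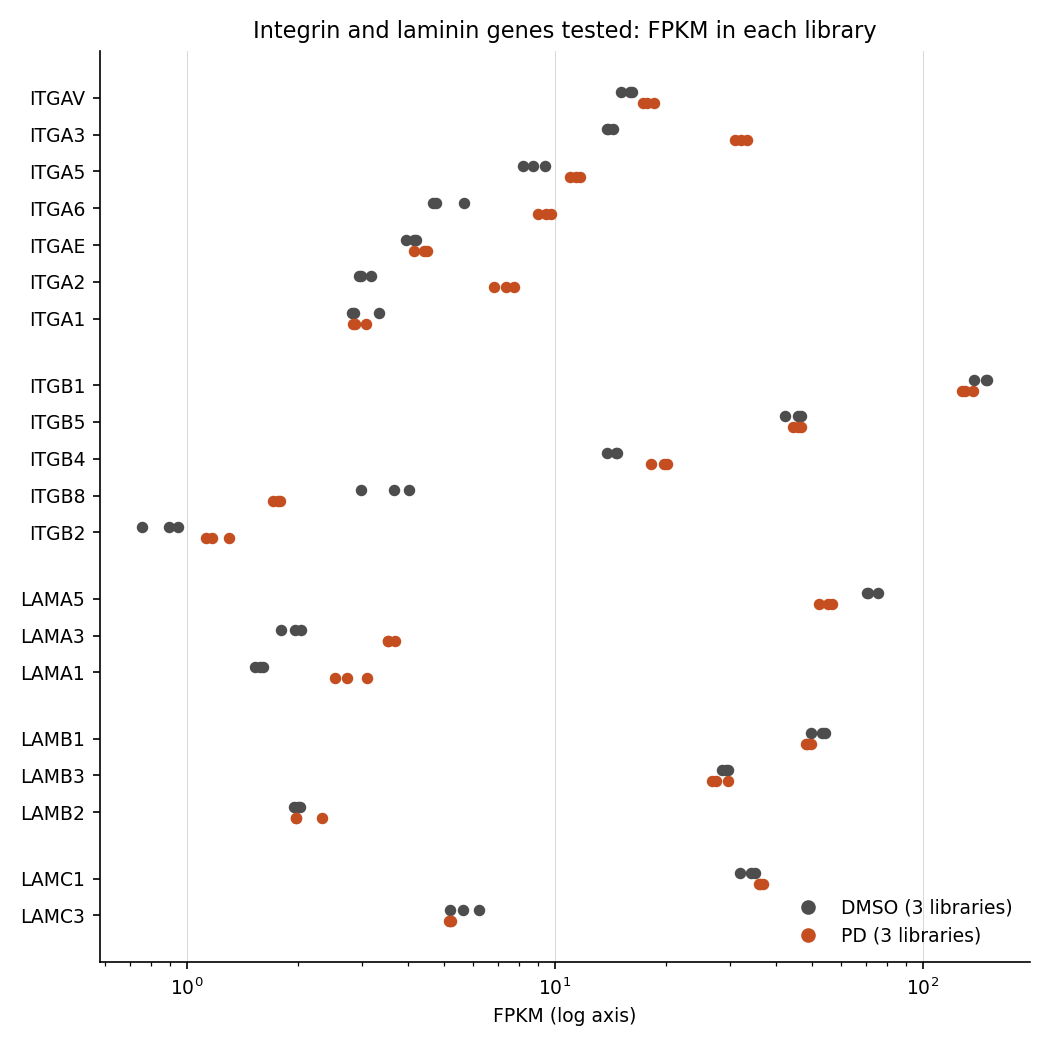
FPKM (x axis, log scale) of the 20 integrin and laminin genes tested (y axis, grouped by kind and ordered by the DMSO mean within each kind), 1 point per library, 3 DMSO and 3 PD. ITGB1 stands highest, at 128 to 150 FPKM, and the ratio of the group means is largest for ITGA2 (2.42) and ITGA3 (2.28).

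Upstream sequences are shown for ITGA2, a called alpha subunit, and for LAMA3 and LAMA5, laminin chains that moved in opposite directions, since several results below turn on these 3 genes. Each is the 250 bases before the RefSeq start on GRCh38.p14, written 5′ to 3′ along the gene's strand, with matches to AP-1 (TGACTCA or TGAGTCA) and SP1 (GGGCGG or CCGCCC) in capitals. ITGA2 lies on chr5:52989102-52989351, plus strand, LAMA3 on chr18:23872770-23873019, plus strand, and LAMA5 on chr20:62367313-62367562, minus strand. The LAMA3 window precedes the start of a shorter transcript, 183567 bases inside the gene as GENCODE draws it.
ITGA2: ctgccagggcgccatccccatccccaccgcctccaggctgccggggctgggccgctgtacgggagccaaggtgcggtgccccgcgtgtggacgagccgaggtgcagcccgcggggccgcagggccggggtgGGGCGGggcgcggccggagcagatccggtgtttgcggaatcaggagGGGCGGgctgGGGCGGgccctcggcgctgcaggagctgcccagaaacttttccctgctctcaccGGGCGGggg
LAMA3: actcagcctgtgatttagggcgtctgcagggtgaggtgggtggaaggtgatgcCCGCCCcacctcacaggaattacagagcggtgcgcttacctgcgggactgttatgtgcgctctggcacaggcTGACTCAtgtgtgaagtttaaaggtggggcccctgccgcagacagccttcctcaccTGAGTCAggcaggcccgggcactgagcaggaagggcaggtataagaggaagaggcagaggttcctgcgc
LAMA5: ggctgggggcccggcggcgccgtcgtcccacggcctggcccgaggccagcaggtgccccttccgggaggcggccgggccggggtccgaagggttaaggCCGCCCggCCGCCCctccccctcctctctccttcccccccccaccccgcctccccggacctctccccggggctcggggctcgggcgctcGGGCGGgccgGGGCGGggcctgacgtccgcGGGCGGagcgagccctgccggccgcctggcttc
The ITGA2 window held 4 matches to SP1, LAMA5 held 5, and LAMA3 held 1 match to SP1 and 2 to AP-1. A window was at hand for 24 of the 36 genes. The AP-1 letters were found in 1 of the 24 windows and in 4.16% of all 27305 windows, and the SP1 letters in 12 of 24 and in 42.3% of all. The TEAD letters (GGAATG or CATTCC) were found in 4 of 24 and in 11.9% of all windows, and in none of the 3 sequences shown. The motifs were sought on both strands, and a match only says that the letters are there.

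ITGA3, which pairs with ITGB1 to bind laminins rich in LAMA5 or LAMA3, had 13.9, 13.9 and 14.4 FPKM in the DMSO libraries and 30.9, 32.2 and 33.3 in the PD libraries. All PD libraries were thus more than 2 times as high as any DMSO library. The log2 fold change was 1.14 ± 0.04 (SE), with a 95% interval of 1.04 to 1.23 and an adjusted p of 2.9e-06, and 1.16% of all genes tested had a larger rise. The gene lies on chromosome 17 (50055968 to 50090481, plus strand, GRCh38) and its exons overlap no other gene. ITGA6, the other abundant laminin-binding subunit and the partner of ITGB4 in hemidesmosomes, had 4.68, 5.66 and 4.75 FPKM in DMSO and 9.77, 9.01 and 9.46 in PD. These groups did not overlap either, with a log2 fold change of 0.79 ± 0.07 and an adjusted p of 8.2e-05, and the PD mean was 1.87 times the DMSO mean. Its exons overlap antisense genes, and whether the counting used strand is not given in the sources used here. ITGA7, the remaining laminin-binding subunit, best known from muscle, was counted at only 1 to 19 fragments in a library. Summed, the laminin-binding subunits stood at 19.1 ± 0.473 FPKM in DMSO and 41.7 ± 1.11 in PD, a 2.18-fold ratio carried almost wholly by ITGA3 and ITGA6.

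ITGA2, the collagen-binding subunit known from platelets and epithelia, had 3.17, 2.97 and 2.93 FPKM in DMSO and 7.74, 6.82 and 7.36 in PD. The groups stood far apart, and the log2 fold change was 1.04 ± 0.06 with an adjusted p of 1.2e-05. ITGA2 (chromosome 5, 52989340 to 53094779, plus strand) lies 30130 bases from ITGA1, which also binds collagen with ITGB1. ITGA1 had 2.85, 3.32 and 2.81 FPKM in DMSO and 3.06, 2.86 and 2.83 in PD, so that its groups overlapped, and its log2 fold change of -0.02 had a 95% interval from -0.19 to 0.14 (adjusted p 0.78). The exons of ITGA1 overlap those of PELO on the same strand, which makes its count less certain. In DMSO the neighbours ITGA1 and ITGA2 thus had nearly the same FPKM, and in PD ITGA2 had more than 2 times that of ITGA1. The remaining collagen-binding subunits, ITGA10 of cartilage and ITGA11 of fibroblasts, had at most 5 fragments in any library.

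Among subunits that bind the RGD motif of fibronectin, vitronectin and related proteins, ITGAV had the highest FPKM, with 16.0, 16.2 and 15.1 in DMSO and 18.6, 17.3 and 17.8 in PD. The rise was small, 0.17 ± 0.04 on the log2 scale with an adjusted p of 0.012, but the groups did not overlap. ITGA5, the fibronectin receptor subunit, had 8.72, 8.19 and 9.39 FPKM in DMSO and 10.97, 11.4 and 11.7 in PD, a log2 fold change of 0.34 ± 0.06 with an adjusted p of 0.0015. ITGAV, ITGA5 and the platelet subunit ITGA2B together had 24.9 ± 0.210 FPKM in DMSO and 29.9 ± 0.458 in PD, a ratio of 1.20, and its difference from the ratio of the laminin-binding subunits was not tested. ITGAE, which pairs with ITGB7 in T cells that lodge in epithelia, had 3.95 to 4.21 FPKM in DMSO and 4.13 to 4.49 in PD and did not pass the test (adjusted p 0.31). Its exons overlap HASPIN on the opposite strand, and ITGB7 itself had no more than 5 fragments in a library. In all, 5 of the 7 alpha subunits tested rose and none fell past the adjusted p, beside 31.9% and 26.2% of all genes tested.

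**Figure D2:**
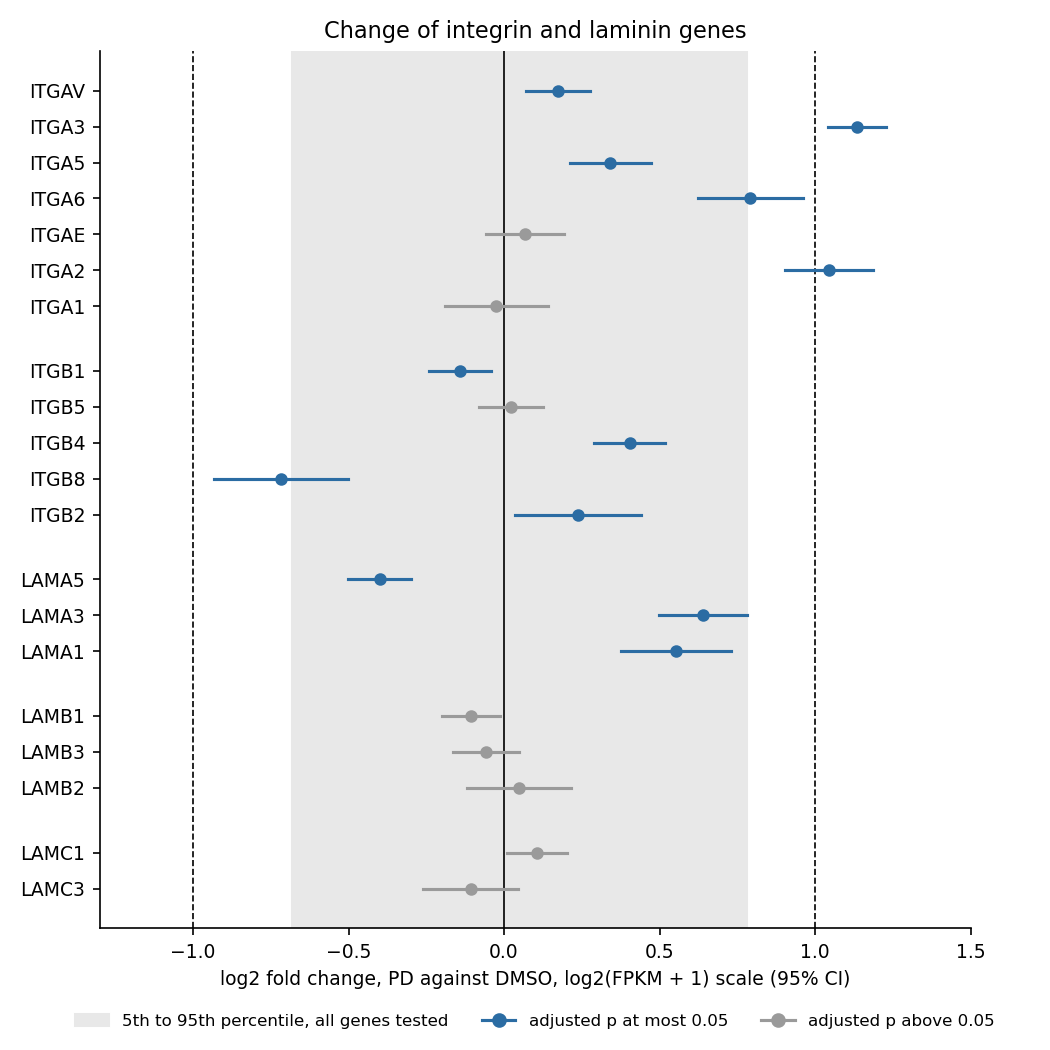
Log2 fold change of PD against DMSO on the log2(FPKM + 1) scale (x axis) with its 95% interval for the 20 genes tested (y axis), in blue where the adjusted p was at most 0.05, with dashed lines at a 2-fold change and a grey band from the 5th (-0.68) to the 95th percentile (0.78) of all genes tested. ITGA3, ITGA2 and, barely, ITGA6 lie above the band, and ITGB8 lies below it.

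ITGB1, the highest of the 36 genes in FPKM, had 148, 150 and 138 FPKM in DMSO and 137, 128 and 130 in PD, from 12762 to 15408 fragments in a library. The lowest DMSO library stood barely above the highest PD library. The log2 fold change was -0.14 ± 0.04 with an adjusted p of 0.024, and this call was lost when the first or second DMSO library or any PD library but the first was left out (adjusted p 0.073 to 0.079). ITGB5, which pairs with ITGAV, had 42.3, 45.8 and 46.6 FPKM in DMSO and 44.3, 45.8 and 46.7 in PD. Its groups overlapped, and the log2 fold change of 0.02 had an interval from -0.08 to 0.13 and turned slightly negative under other scalings of the libraries. ITGB4, whose long cytoplasmic tail ties laminin to keratin filaments, had 14.7, 13.8 and 14.7 FPKM in DMSO and 18.3, 19.8 and 20.2 in PD. The rise of 0.40 ± 0.05 on the log2 scale had an adjusted p of 0.00032.

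ITGB8, whose pair with ITGAV binds latent TGF-beta, had 3.66, 4.02 and 2.98 FPKM in DMSO and 1.79, 1.72 and 1.77 in PD. Every PD library was lower than every DMSO library, and the DMSO mean was 2.02 times the PD mean. On the log2(FPKM + 1) scale, which shrinks changes of low values, the fold change was -0.72 ± 0.09 with an adjusted p of 0.00046, short of 2-fold, and 4.42% of all genes tested fell further. With voom in limma on the fragments behind the FPKM, the change was -1.003 ± 0.09 and ITGB8 was called. The exons of ITGB8 overlap ITGB8-AS1 on the opposite strand. ITGB2, the beta subunit of leukocyte integrins, had 0.945, 0.755 and 0.894 FPKM in DMSO and 1.12, 1.30 and 1.17 in PD. Its adjusted p was 0.047, and the call was lost when any 1 of the 6 libraries was left out (adjusted p 0.059 to 0.14). The 10 leukocyte markers summed to 0.710 to 0.849 FPKM in DMSO and 0.755 to 0.947 in PD. Only 1 of them was high enough to be tested, and it did not pass. The exons of ITGB2 overlap ITGB2-AS1, and the part of leukocyte RNA or of this overlap in its value was not tested.

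Because an integrin reaches the cell surface only as a pair, the subunits were compared as ratios within each library, which do not depend on how libraries are scaled. Of 24 known pairs, 9 had both subunits tested. The alpha to beta ratio was higher in all 3 PD libraries than in any DMSO library for 8 of the 9 pairs, and overlapped for ITGA1 with ITGB1. For single genes, the share with no overlap was 65.4% of all genes tested. With 3 against 3 libraries the exact two-sided permutation test cannot give less than p = 0.10, which these 8 pairs reached (adjusted p 0.1125 over the 9 pairs), so none could pass 0.05. In addition, 6 of the 9 pairs share ITGB1, which was itself lower in every PD library, and they are not independent of each other.

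The ratio of ITGA2 to ITGB1 was 0.0214, 0.0198 and 0.0213 in DMSO and 0.0567, 0.0532 and 0.0566 in PD. That of ITGA3 to ITGB1 was 0.0936, 0.0928 and 0.105 in DMSO and 0.226, 0.251 and 0.256 in PD. Both stood more than 2 times as high in every PD library, and even then the FPKM of ITGB1 exceeded that of each alpha subunit several times over. That excess depends on the gene lengths used, since the FPKM of ITGB1 rests on 6011 bases, where GENCODE release 44 gives 14561 of exon. The change of a ratio between the groups does not depend on them. For ITGA6 the mean ratio to ITGB1 was 0.0346 ± 0.00310 in DMSO and 0.0715 ± 0.00117 in PD, and its ratio to ITGB4 was 0.350 ± 0.0513 and 0.486 ± 0.0416. In the latter pair both subunits were higher in PD. ITGAV was paired with 3 beta subunits, and its mean ratio in DMSO and PD was 0.109 and 0.136 to ITGB1, 0.352 and 0.394 to ITGB5, and 4.49 and 10.2 to ITGB8. The ITGAV to ITGB5 groups only just separated, at 0.378 for the highest DMSO library and 0.379 for the lowest PD library.

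**Figure D3:**
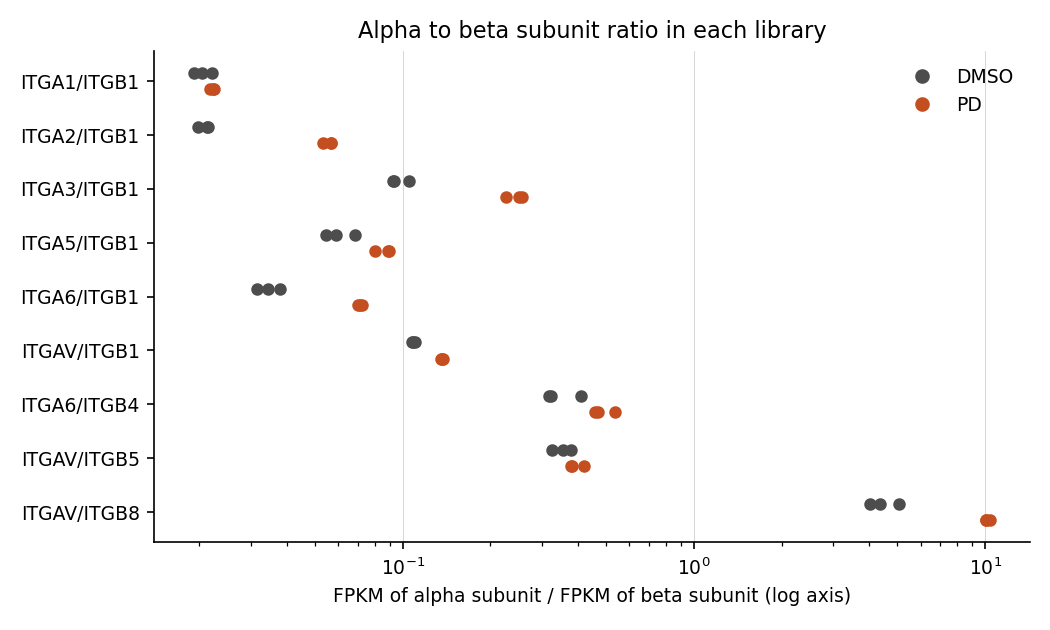
FPKM of the alpha subunit divided by FPKM of the beta subunit (x axis, log scale) for 9 integrin pairs (y axis), 1 point per library, 3 DMSO and 3 PD. The PD points lie above the DMSO points in 8 pairs and overlap them for ITGA1/ITGB1, and ITGAV/ITGB8 is the pair in which the alpha subunit exceeds the beta subunit.

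All 10 alpha subunits in the table that can pair with ITGB1 summed to 49.7 ± 0.534 FPKM in DMSO and 81.3 ± 1.45 in PD, 1.63 times as much, while ITGB1 itself stood at 145 ± 6.79 and 132 ± 4.42. Within this sum of FPKM ITGAV held the largest share in DMSO, 31.7% ± 0.963, and ITGA3 the largest in PD, 39.5% ± 1.30. The order in DMSO depends on the gene lengths used. The FPKM of ITGAV rests on 8211 bases, where GENCODE release 44 gives 19336 of exon, against 9802 for ITGA3 in both. In fragments, ITGA3 had 7053 over the DMSO libraries and ITGAV 6627. ITGA3 had 28.3% ± 0.739 in DMSO, and ITGAV had 22.1% ± 0.748 in PD. ITGA2 went from 6.08% to 8.99% and ITGA1 from 6.01% to 3.59%. The shares of ITGA6 were 10.1% and 11.6%, and those of ITGA5 were 17.6% and 14.0%. For each of these 6 subunits the shares in the groups did not overlap, beside 65.4% of all genes tested for FPKM. ITGA6 only just separated, at 11.25% for the highest DMSO library and 11.29% for the lowest PD library. The shares are parts of 1 sum and are not independent of each other. A share falls where the others rise, so that ITGAV and ITGA5 lost share while their own FPKM rose.

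Laminin alpha chains carry the sites that integrins bind. LAMA5, the alpha chain of most adult epithelial and vascular basement membranes, had 70.9, 70.6 and 75.7 FPKM in DMSO and 52.2, 56.6 and 55.2 in PD. All PD libraries were well below the DMSO libraries, with a log2 fold change of -0.40 ± 0.04 and an adjusted p of 0.00019. Part of its exons overlaps ADRM1 and LAMA5-AS1 on the opposite strand. LAMA3, the alpha chain of laminins under the epidermis and other epithelia, had 1.81, 1.97 and 2.04 FPKM in DMSO and 3.53, 3.52 and 3.68 in PD, a log2 fold change of 0.64 ± 0.06 with an adjusted p of 0.0001. LAMA1, the alpha chain of the early embryo, had 1.58, 1.53 and 1.61 FPKM in DMSO and 2.53, 2.72 and 3.09 in PD, with 0.55 ± 0.08 and an adjusted p of 0.0006. Neither gene's groups overlapped, and their PD means were 1.85 and 1.77 times the DMSO means. LAMA5 still made up most of the laminin alpha FPKM, with 95.2% ± 0.103 in DMSO and 89.5% ± 0.484 in PD, whereas LAMA3 went from 2.55% to 5.86% and LAMA1 from 2.07% to 4.55%. The alpha chains together went from 76.0 ± 2.95 to 61.1 ± 2.44 FPKM.

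No beta or gamma chain passed the test on log2(FPKM + 1). LAMB1, the common beta chain, had 49.8, 53.4 and 54.4 FPKM in DMSO and 49.6, 48.0 and 48.4 in PD, with a log2 fold change of -0.11 ± 0.04 (adjusted p 0.054), but it passed with voom (0.019), with median-of-ratios (0.026) or upper quartile (0.016) scaling, and without the first DMSO library (0.014). LAMC1, the common gamma chain, had 31.9, 35.1 and 34.0 FPKM in DMSO and 36.0, 36.8 and 36.2 in PD, with 0.11 ± 0.04 (adjusted p 0.058), but it passed with voom (0.024) and without the second DMSO library (0.033). Neither pair of groups overlapped, yet both differences were small and opposite in sign. LAMB3, a beta chain of epithelial laminins, had 28.5, 29.2 and 29.6 FPKM in DMSO and 26.7, 27.4 and 29.6 in PD, and its groups overlapped (adjusted p 0.30). LAMB2 ran from 1.95 to 2.33 FPKM over all 6 libraries, and LAMC3 from 5.17 to 6.23.

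**Figure D4:**
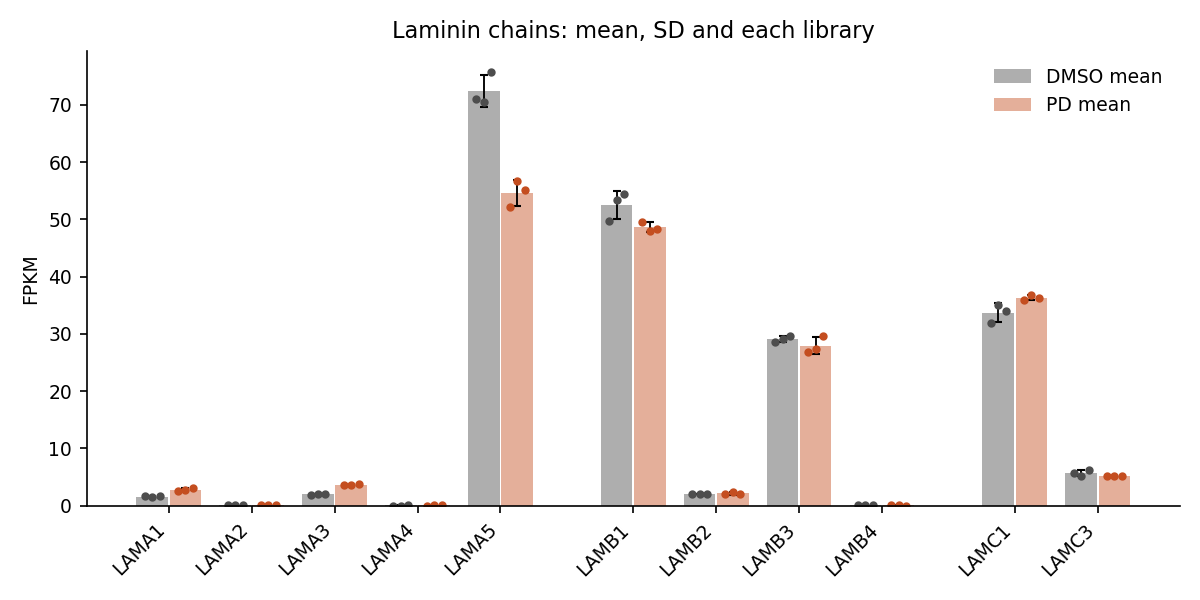
Mean FPKM (y axis, from 0) of 11 laminin chains (x axis) in DMSO and PD, with bars for the mean of 3 libraries, whiskers for the SD and a point for each library. LAMA5, LAMB1, LAMB3 and LAMC1 hold nearly all laminin mRNA, and LAMA5 is the chain whose PD points lie clearly below its DMSO points.

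Read as trimers, all chains of laminin-511 were abundant, and its chain with the lowest FPKM was LAMC1, with 33.7 in DMSO and 36.3 in PD. The lower LAMA5 in PD, 54.7 FPKM, was still above LAMC1. The FPKM of LAMB1 rests on 8140 bases, where GENCODE release 44 gives 18592 of exon. Whether LAMC1 or LAMB1 was the scarcer chain thus depends on the gene lengths used. For laminin-111 the scarcest chain was LAMA1, with 1.57 and 2.78 FPKM, and for laminin-311 it was LAMA3, with 1.94 and 3.58, so that in both trimers it was the scarcest chain that rose. In laminin-321, LAMA3 and LAMB2 stood close together in DMSO, and LAMB2 was the scarcest chain in PD. For laminin-521 and laminin-523 it was LAMB2, with 1.99 and 2.10 FPKM. Levels of mRNA do not give the amount of trimer, which was not measured.

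The 16 genes that were not tested had at most 68 fragments in a library and a group mean of at most 0.597 FPKM, whereas the tested genes had at least 86 fragments. They include ITGB3, ITGB6, ITGB7, ITGA9, ITGA10, ITGA11, LAMA4 and LAMB4, none of which reached 6 fragments in any library, so that a difference was not detectable at this depth. ITGAL and ITGAM, alpha subunits of leukocytes, had up to 11 and 16 fragments, with overlapping groups. A few others could be compared on fragments by voom, which tested 25 of the 36 genes and called 6 of them at 2-fold, against 11.5% of all genes in that fit. On the adjusted p alone voom passed 18 of the 25, against 62.7%. ITGA3, ITGA2, ITGAX and ITGA7 were called higher and ITGB8 and LAMA2 lower.

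LAMA2, the laminin alpha chain of muscle, had 22, 23 and 22 fragments in DMSO and 10, 8 and 3 in PD, a voom log2 fold change of -1.75 ± 0.39 with an adjusted p of 0.0005. ITGAX, a leukocyte subunit, had 1, 3 and 4 fragments in DMSO and 10, 30 and 15 in PD, with 2.55 ± 0.56 and an adjusted p of 0.00044. ITGA7 had 11, 3 and 1 fragments in DMSO and 16, 12 and 19 in PD, with 1.99 ± 0.53 and an adjusted p of 0.0027, and its exons overlap METTL7B and BLOC1S1 on the opposite strand. Each of the 3 met the voom minimum of 10 fragments in 3 libraries through the group where it was high, ITGAX by its PD libraries alone. Their entry into the fit thus leaned on the difference itself, so that their adjusted p-values add no support to it. In each of the 3 the groups did not overlap, but the whole group held only 8 to 67 fragments, and FPKM stayed below 0.25. ITGA2B had 42, 31 and 34 fragments in DMSO and 68, 59 and 46 in PD, and its voom change of 0.66 ± 0.22 passed the adjusted p (0.011) but not 2-fold. ITGAD, another leukocyte subunit, had 11, 20 and 11 fragments in DMSO and 26, 23 and 20 in PD and did not pass (adjusted p 0.055).

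**Figure D5:**
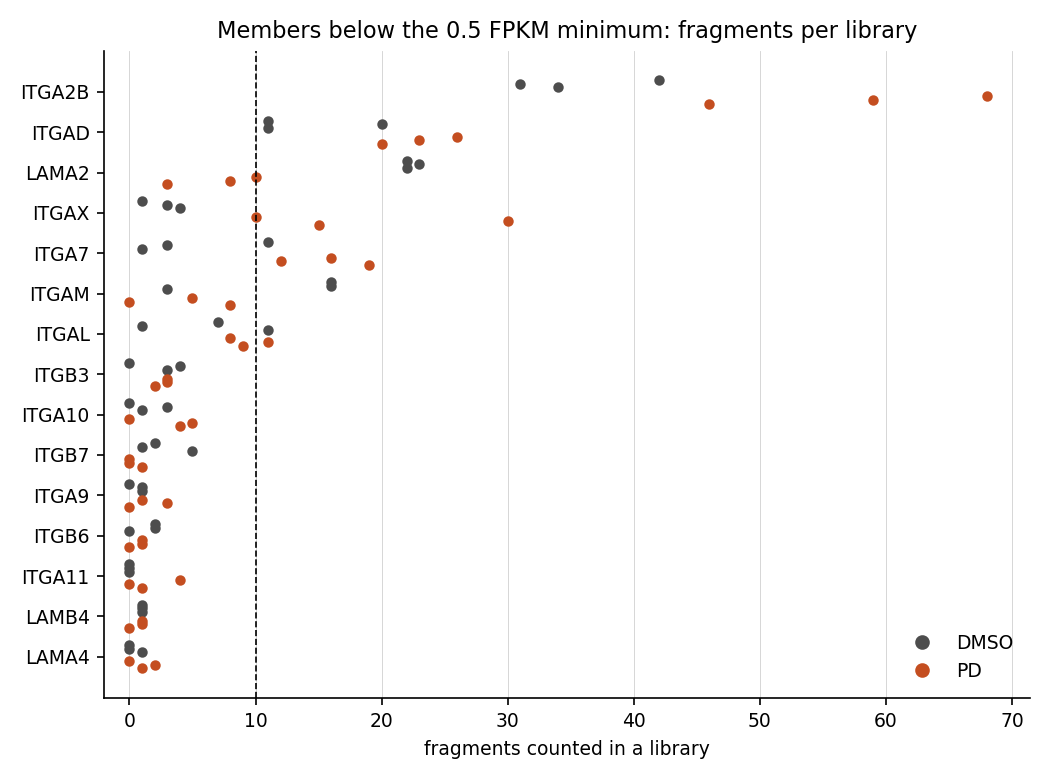
Fragments counted in a library (x axis) for 15 genes below the minimum of 0.5 FPKM (y axis, ordered by their sum over libraries), 1 point per library, 3 DMSO and 3 PD, with a dashed line at 10 fragments. ITGA2B is the highest, at up to 68 fragments, LAMA2 shows its DMSO points above its PD points, and ITGAX and ITGA7 show the reverse.

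The rest of the adhesion machinery was read from gene lists, with no test of a list as a whole. The counts below stand beside 31.9% of all genes tested that rose and 26.2% that fell past the adjusted p, 58.1% in all. Of 36 genes of the adhesion core inside the cell, 32 were tested, of which 9 rose and 11 fell past the adjusted p, a share near that of all genes, with a median log2 fold change of -0.01. TLN2, a talin that links integrin tails to actin, was the only one called at 2-fold, with 0.528, 0.559 and 0.523 FPKM in DMSO and 2.62, 2.64 and 2.68 in PD (log2 fold change 1.25 ± 0.07, adjusted p 1.1e-05). The log2(FPKM + 1) scale understates this change, since the PD mean was 4.94 times the DMSO mean and voom gave 2.30. Its far more abundant relative TLN1 went from 19.6 to 24.3 FPKM, a log2 fold change of 0.30 (adjusted p 0.00088). GIT1, an adaptor of focal adhesions, came next among rises with 0.99 ± 0.07, and it passed 2-fold with a pseudocount of 0.1 (1.03), with voom (1.03), and without the last DMSO library (1.04), the first PD library (1.00) or the second PD library (1.03). Of the tensin genes, TNS1, TNS3 and TNS4 fell by 0.49, 0.89 and 0.79 on the log2 scale, TNS4 being called with voom (-1.02), and TNS2 rose by 0.58. TLN1, GIT1 and the tensins were chosen after their values were seen. Of 12 inhibitors and trafficking factors of integrins, 10 were tested, 4 rose, none fell and none was called at 2-fold.

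Among 14 other laminin receptors and tetraspanins, all tested, 9 rose and 3 fell past the adjusted p, against 31.9% and 26.2% of all genes, with a median of 0.27. The syndecan SDC3, a heparan sulfate proteoglycan of the cell surface, was called, with 4.18, 3.99 and 4.28 FPKM in DMSO and 9.27, 10.4 and 9.62 in PD (1.06 ± 0.06, adjusted p 8.4e-06). Of the other syndecans, SDC1 rose from 40.1 to 66.7 FPKM and SDC2 from 10.2 to 11.8. SDC4, the most abundant syndecan listed, fell from 90.7 to 59.1 FPKM, by 0.61 on the log2 scale (adjusted p 4.6e-05). CD151, the tetraspanin that binds ITGA3 and ITGA6 most tightly, had 36.4 FPKM in DMSO and 35.3 in PD and did not pass (adjusted p 0.63). The other tetraspanins listed all passed the adjusted p. CD63, CD81, CD82 and CD9 rose by 0.88, 0.85, 0.51 and 0.34 on the log2 scale, and TSPAN4 and TSPAN8 fell by 0.33 and 0.22. BCAM, a receptor of LAMA5, went from 3.11 to 5.77 FPKM, a log2 fold change of 0.71 ± 0.08 with an adjusted p of 0.00027. SDC1, SDC2, SDC4, the tetraspanins and BCAM, too, were chosen after their values were seen.

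Of 16 partners of laminin in the basement membrane, 13 were in the table and 12 were tested. Of these, 2 rose and 5 fell past the adjusted p, beside 31.9% and 26.2% of all genes, with a median of -0.06. Only the 2 directions together were near the share of all genes, 58.1%. None was called at 2-fold, against 3.61% of all genes. The collagen IV chains COL4A1 and COL4A2 went from 59.5 to 48.0 and from 144 to 123 FPKM, falling by 0.30 and 0.23 on the log2 scale. The scarcer chain COL4A5 rose by 0.26, COL4A3 and COL4A4 did not pass (adjusted p 0.54 and 0.086), and COL4A6 was not tested. The collagen IV genes were chosen after their values were seen. Of the 2 hemidesmosome partners tested, PLEC, the plectin that binds the tail of ITGB4, fell by 0.23 (adjusted p 0.0028), while DST did not pass (adjusted p 0.73).

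Of 22 other integrin ligands, 20 were in the table and 12 were tested, of which 4 rose and 4 fell past the adjusted p, beside 31.9% and 26.2% of all genes. The matricellular protein CCN3 was called higher, with 6.39, 6.52 and 6.43 FPKM in DMSO and 23.7, 22.6 and 21.6 in PD (1.67 ± 0.05, adjusted p 1.6e-06). Its relative CCN1 was called lower, with 86.7, 69.1 and 70.5 FPKM in DMSO and 28.7, 32.8 and 30.5 in PD (-1.26 ± 0.09, adjusted p 2.9e-05). MFGE8, a bridging ligand of ITGAV pairs, had 0.754, 0.585 and 0.693 FPKM in DMSO and 2.48, 2.15 and 2.43 in PD. The PD mean was 3.48 times the DMSO mean. On the log2(FPKM + 1) scale the change was 1.00 ± 0.08, on the 2-fold line, with 1.66 at a pseudocount of 0.1 and 1.80 with voom. It was 0.96 without the second DMSO library, 0.97 without the first PD library and 0.98 without the last. With median-of-ratios (0.980) or upper quartile (0.975) scaling it was short of 2-fold as well. FN1, the fibronectin gene and ligand of ITGA5, had a mean of only 0.503 FPKM in DMSO and 0.460 in PD and was not tested.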

How the data were processed

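RNA of cells labelled HepG2, given PD or DMSO (3 libraries each), was measured. Per the study's methods and the labels, reads were aligned to hg38 with HISAT2 and counted on genes with HTSeq 0.6.0, and the authors deposited FPKM, the only values used. Library preparation used the NEBNext Ultra kit. The strand setting and the gene lengths used are not given in the sources used here. Besides the tested integrin and laminin genes flagged above, exons of ITGA1, ITGA5, ITGAV, ITGB1, LAMA1 and LAMB1 also overlap opposite-strand genes. For LAMB1 these include DLD.

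Ensembl identifiers were matched to GENCODE release 44. Genes averaging 0.5 FPKM or more were fitted with limma 3.58.1 in R 4.3.3 (trend) on log2(FPKM + 1), a scale that understates changes of low genes, and p-values were adjusted by Benjamini-Hochberg over all 14400 genes. A call needed a 2-fold change and an adjusted p no higher than 0.05. Whole fragments were worked back from the FPKM steps, by exon length for 12879 genes and by a common step for 15684 (tolerance 0.001), and used for depth and for voom (at least 10 fragments in 3 libraries). Pair ratios were tested by exact two-sided permutation in scipy 1.17.1. Upstream windows came from RefSeq, GRCh38.p14. The fits were tested on simulated data.

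The genes and lists were chosen with earlier results of these data known. Named genes were the called ones, those with at least 10 FPKM, and the 3 largest called changes of a list. Alternatives were a pseudocount of 0.1, no FPKM filter, a replicate block, leaving out each library, voom and 2 other scalings. Replicate numbers did not pair the libraries. The values of 1 gene are not reported here.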

Additional observations from a re-analysis of the deposited data

How the results depend on the processing

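Over the 20 integrin and laminin genes tested and 12 alternatives each, 214 of 240 comparisons kept direction and side of the adjusted p, 15 lost and 6 gained the adjusted p, 5 turned sign, and 13 genes kept both throughout. The losses were in ITGB1 and ITGB2 and the gains in LAMB1 and LAMC1, and without an FPKM filter ITGB1 had an adjusted p of 0.065. The sign turned for ITGA1 without the second DMSO library (0.03), for LAMB2 without the second PD library (-0.0051), and for ITGB5 without the first DMSO library (-0.0188) and with median-of-ratios (-0.0122) or upper quartile (-0.0235) scaling, and none of these passed the test. Over the libraries left out the log2 fold change ran from -0.0574 to 0.0334 for ITGA1, from -0.0188 to 0.0491 for ITGB5 and from -0.0051 to 0.0736 for LAMB2. Genes called among all numbered 520, 1248 with a pseudocount of 0.1 and 1735 with voom. With voom, 6 of the 36 genes were called in place of 2, and 8 genes of the adhesion lists in place of 5. Of the 6, ITGAX, ITGA7 and LAMA2 lay below the 0.5 FPKM minimum and were not in the main fit. The cause of the other differences was not tested.

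Same-numbered libraries correlated at -0.03, -0.00 and 0.09 in their deviations, so the numbers did not pair them. With the replicate block 518 genes were called, and of the 12 genes past the adjusted p only ITGB2 was lost (0.098). The 16 genes below 0.5 FPKM rest on at most 68 fragments in a library, which leaves their folds imprecise.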
